A study of Mus musculus with 18 samples.

Results

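The 9 genes described here encode the cell's sensors of foreign or misplaced RNA and DNA, their adaptor, and the enzymes that edit double-stranded RNA: Ddx58, Ifih1, Dhx58, Mavs, Zbp1, Adar, Adarb1, Eif2ak2 and Tlr3. They were chosen by name, with earlier results of these data known. The study deleted Zbp1, Ifih1 and Adar in tumour cells, and the others belong to the same pathways. They stand among 55401 genes listed for endothelial cells, of which 18511 were tested, and among 22612 listed for EO771 cells, of which 11602 were tested. All 9 were listed and tested in both tables.

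The 18 mouse RNA sequencing libraries form 6 groups of 3. Blood vessel endothelial cells (BECs) came from the mammary fat pad of mice without tumours (BEC normal) or from EO771 tumours grown in the fat pad (BEC tumour). High endothelial cells (HECs), which line the venules through which lymphocytes enter lymph nodes, came from lymph nodes of mice without tumours (HEC normal) or with EO771 tumours (HEC tumour), and the labels name lymph node metastases as the tissue of the latter. EO771, a mouse breast cancer line, was cultured with vehicle or with 12-HETE, the lipid that ALOX12 makes from arachidonic acid. The methods name wild-type C57BL/6 mice as the source of all sorted cells, which were gated as CD45- CD31high, with HECs then taken as PNAd+. They give PNAd- as the gate of BECs outside high endothelial venules. Whether it was applied to the BECs of fat pad and tumour is not said expressly. The age of the mice and the dose and duration of 12-HETE are stated in the methods and not in the labels, and are not repeated here. Cell type and tissue of origin cannot be told apart in any comparison of HECs with BECs, nor tumour and fat pad in BECs. The study describes the libraries of a group as independent experiments, but the number of mice behind an endothelial library is not given in the sources used here. The tables were made separately, and levels were not compared between them. An endothelial library held 56.4 to 79.4 M in total, in values that rise in steps of about 3.7 and so are not numbers of fragments, and an EO771 library held 17.3 to 18.6 M counts.

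As background, cells watch for double-stranded RNA in the cytosol with helicases that pass their signal through a mitochondrial adaptor to the genes of type I interferon. Most of these sensors are themselves induced by interferon, so their RNA is commonly read along with the interferon response. Adenosine deaminases acting on RNA change adenosines of double-stranded RNA to inosines, which weakens its recognition by the same sensors. RNA editing itself, protein levels and protein activity were not measured in these tables.

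The helicases are Ddx58, which encodes RIG-I, Ifih1, which encodes MDA5, and Dhx58, which encodes LGP2, a regulator of both that lacks their signalling domains. On GRCm38 they lie at chr4:40203773-40239828 (Ddx58, ENSMUSG00000040296), chr2:62595798-62646255 (Ifih1, ENSMUSG00000026896) and chr11:100694884-100704271 (Dhx58, ENSMUSG00000017830), all on the minus strand. Mavs (ENSMUSG00000037523, chr2:131234063-131248025, plus strand) encodes the adaptor of RIG-I and MDA5. Zbp1 (ENSMUSG00000027514, chr2:173206612-173218923, minus strand) encodes a sensor of nucleic acids in the left-handed Z form, which engages RIPK3 and can start necroptosis. Eif2ak2 (ENSMUSG00000024079, chr17:78852564-78882573, minus strand) encodes PKR, a kinase that double-stranded RNA switches on and that halts translation. Tlr3 (ENSMUSG00000031639, chr8:45395665-45411080, minus strand) encodes the endosomal receptor for double-stranded RNA. Adar (ENSMUSG00000027951, chr3:89715022-89753446, plus strand) and Adarb1 (ENSMUSG00000020262, chr10:77290726-77418270, minus strand) encode the editing enzymes ADAR1 and ADAR2. ADAR1 is made as a long interferon-induced form, p150, and a short constitutive form, p110. A count per gene holds the transcripts of both and cannot separate them. Exons of Adar overlap Chrnb2 on the opposite strand over 1365 bases, those of Tlr3 overlap Gm45542 over 381, those of Eif2ak2 overlap n-R5s29 or Gm26637 over 221, and those of Dhx58 overlap Dhx58os over 141. Since it is not stated whether counting used the strand, some reads of these genes may belong to their partners.

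Promoter sequences are shown first, as a description. In the RefSeq promoter set of GRCm38.p6, which spans 250 bases before to 50 after each start, 7 of the 9 genes had an entry. Dhx58 and Zbp1 had none. The core of the interferon-stimulated response element (GAAA, any 2 bases, GAAA) was found on either strand in the promoters of 3 of these 7 genes, and in 3.99% of 27025 genes. Its shorter part AANNGAAA, which it contains and which was added after the promoters had been read, was found in 5 of the 7 and in 26.7% of the genes. Chosen on these same promoters, the shorter part describes them and tests nothing. Every 30-base window around a match is printed 5′ to 3′ on the gene's strand, with the matched bases in capitals.
Ddx58, chr4:40239866-40239895, minus: tctaggttcagAAACGAAActggatccccg
Ddx58, chr4:40239804-40239833, minus: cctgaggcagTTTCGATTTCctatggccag
Ifih1, chr2:62646206-62646235, minus: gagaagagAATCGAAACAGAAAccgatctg
Eif2ak2, chr17:78882535-78882564, minus: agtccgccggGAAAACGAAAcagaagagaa
Adar, chr3:89730736-89730765, plus: ccttttcaaggAAACGAAAgtgaactctgg
Tlr3, chr8:45410421-45410450, minus: aagtgaatggcTTTCACTTtgtttagacac
The full core is in Ddx58 as its reverse complement, in Ifih1 within a longer run of capitals, and in Eif2ak2. The Adar window lies at the third of 3 listed starts, and its other starts, Mavs and Adarb1 had no match. Counting the start base as 1, the capitals begin 59 bases before the start in Ddx58 and Tlr3, and at base 3 (the second Ddx58 match), 19 (Eif2ak2), 29 (Ifih1) and 30 (Adar). A match is a description of the letters and not evidence that a factor binds there.

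The first comparison asked how the sensors and editors differed in EO771 cells given 12-HETE. Of the 9 genes, 6 were lower with 12-HETE at an adjusted p under 0.05 and a fold over 2: Ddx58, Ifih1, Dhx58, Zbp1, Eif2ak2 and Adar. Over all genes tested, 7.79% were called lower by the same rule and 2.38% higher. Zbp1, Dhx58, Ddx58 and Ifih1 fell by more than Adar, with 95% intervals apart from its own, and Eif2ak2 fell by about as much. Mavs, Adarb1 and Tlr3 did not pass. Below, a gene is said to fall or rise when its adjusted p was under 0.05, and to be called when its fold was also over 2. Vehicle and 12-HETE libraries were free of overlap for 6 genes in the lower direction, beside 30.5% of all genes, and 2 in the higher, beside 30.2%. The median log2 fold change of the 9 was −1.15, beside 0.00 over all genes tested.

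**Figure D1:**
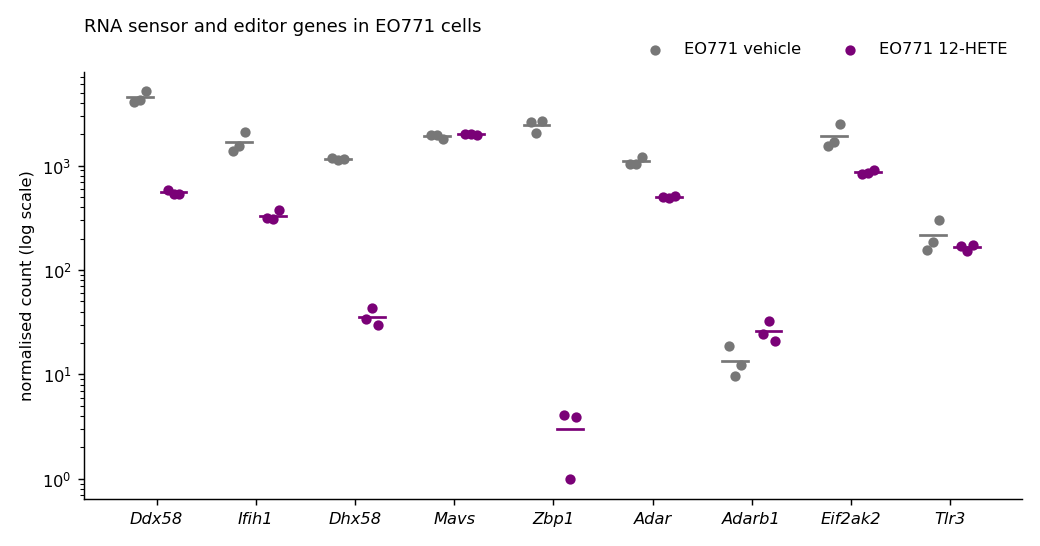
Normalised count (log scale) of each gene in every EO771 library; points are libraries, bars are means of 3, grey is vehicle and purple is 12-HETE. Zbp1 sits between 2065 and 2671 with vehicle and between 0.99 and 4.11 with 12-HETE, whereas Mavs lies between 1799 and 2017 over all 6 libraries.

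Levels are given as normalised counts, the deposited value divided by the library's DESeq2 size factor. Zbp1 had 2605, 2065 and 2671 normalised counts in the vehicle libraries. In the 12-HETE libraries only 4, 1 and 4 reads of Zbp1 were counted. The groups were far apart, and summed counts of 7402 and 9 gave a ratio of 814, with an exact 95% interval of 429 to 1782 that covers counting error only. The fitted log2 fold change, −9.67 ± 0.50 (SE; DESeq2 adjusted p = 1.95e-80), rests on these few reads.

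Dhx58 had 1180, 1135 and 1153 normalised counts with vehicle and 33.9, 43.4 and 29.5 with 12-HETE. The vehicle libraries were the closest set of any member in that group, with a coefficient of variation of 1.93%. Dhx58 fell by 5.02 ± 0.18 on the log2 scale, a fold of 32.5 (adjusted p = 1.04e-169). Ddx58 had 4063, 4269 and 5181 with vehicle and 582, 536 and 540 with 12-HETE. It fell by 3.03 ± 0.13 on the log2 scale, a fold of 8.15 (adjusted p = 1.75e-125). Ifih1 had 1365, 1538 and 2116 with vehicle and 317, 308 and 373 with 12-HETE. It fell by 2.33 ± 0.18, a fold of 5.03 (adjusted p = 1.80e-35). The 3 helicase genes thus kept an order in which the regulator LGP2 fell most and MDA5 least, and their 95% intervals (−5.37 to −4.67, −3.27 to −2.78 and −2.69 to −1.97) did not overlap.

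Eif2ak2 had 1551, 1696 and 2514 normalised counts with vehicle and 831, 856 and 901 with 12-HETE. The vehicle libraries were the more spread, and replicate 3 was the highest for Eif2ak2, Ddx58, Ifih1, Zbp1, Adar and Tlr3. The fall of Eif2ak2 was 1.15 ± 0.18 (log2 fold change −1.15, adjusted p = 3.47e-09). When vehicle replicate 3 was left out it was −0.91, under a fold of 2. Tlr3 had 156, 183 and 303 with vehicle and 172, 152 and 175 with 12-HETE. The groups overlapped, and the log2 fold change was −0.37 ± 0.26 (adjusted p = 0.24).

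Mavs had 1975, 1945 and 1799 normalised counts with vehicle and 2017, 1988 and 1978 with 12-HETE. Its log2 fold change was 0.07 ± 0.09 (adjusted p = 0.55), with a 95% interval of −0.10 to 0.23. The adaptor's interval lay apart from those of its sensors Ddx58 and Ifih1, and a difference within it was not detectable with these libraries.

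Adar had 1047, 1043 and 1206 normalised counts with vehicle and 497, 493 and 514 with 12-HETE. The groups did not overlap, and Adar fell by 1.13 ± 0.11 on the log2 scale, a fold of 2.19 (adjusted p = 2.55e-22). Adarb1, whose enzyme edits chiefly in the nervous system, was scarce at 18.8, 9.56 and 12.3 with vehicle and 24.6, 32.5 and 20.7 with 12-HETE. Its 12-HETE libraries were all the higher ones, but the log2 fold change of 0.94 ± 0.48 did not pass after adjustment (adjusted p = 0.093).

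Since ADAR1 and the sensors act on the same RNA, the level of Adar was set against Ifih1 and against Zbp1 within each library, a choice made after the values had been seen. The log2 ratio of Adar to Ifih1 normalised counts was −0.58 ± 0.22 with vehicle and 0.60 ± 0.12 with 12-HETE (SD, n = 3), without overlap. The log2 ratio of Adar to Zbp1 was −1.15 ± 0.16 and 7.64 ± 1.15. An exact permutation test gave p = 0.10 for each (Benjamini-Hochberg adjusted p = 0.10 over 6 ratios), the smallest two-sided p that 3 libraries against 3 allow. Groups seen to be apart can give no other value, so the test decides nothing, and the ratios restate the changes of their genes. They were not scaled for exon length, so only their change between groups can be read. In tumour the direction differed between the ratios: Adar over Ifih1 was lower in tumour by 0.35 in HECs and by 0.34 in BECs on the log2 scale, while Adar over Zbp1 was higher by 0.81 and 1.64. Each of these 4 also had libraries without overlap and the same exact p.

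The second comparison asked how the genes differed in HECs when a tumour was present. Of the 9, 2 were called lower in HEC tumour, Dhx58 and Zbp1, where 3.21% of all genes were. At an adjusted p under 0.05 alone, 7 were lower, all but Adarb1 and Tlr3, where 18.5% of all genes were. The groups did not overlap for the same 7 genes, beside 24.1% of all genes, and for Adarb1 in the higher direction, beside 24.7%. The median log2 fold change of the 9 was −0.66, beside 0.02 over all genes. In bulk samples, fewer cells that hold an RNA and less of it per cell cannot be told apart.

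**Figure D2:**
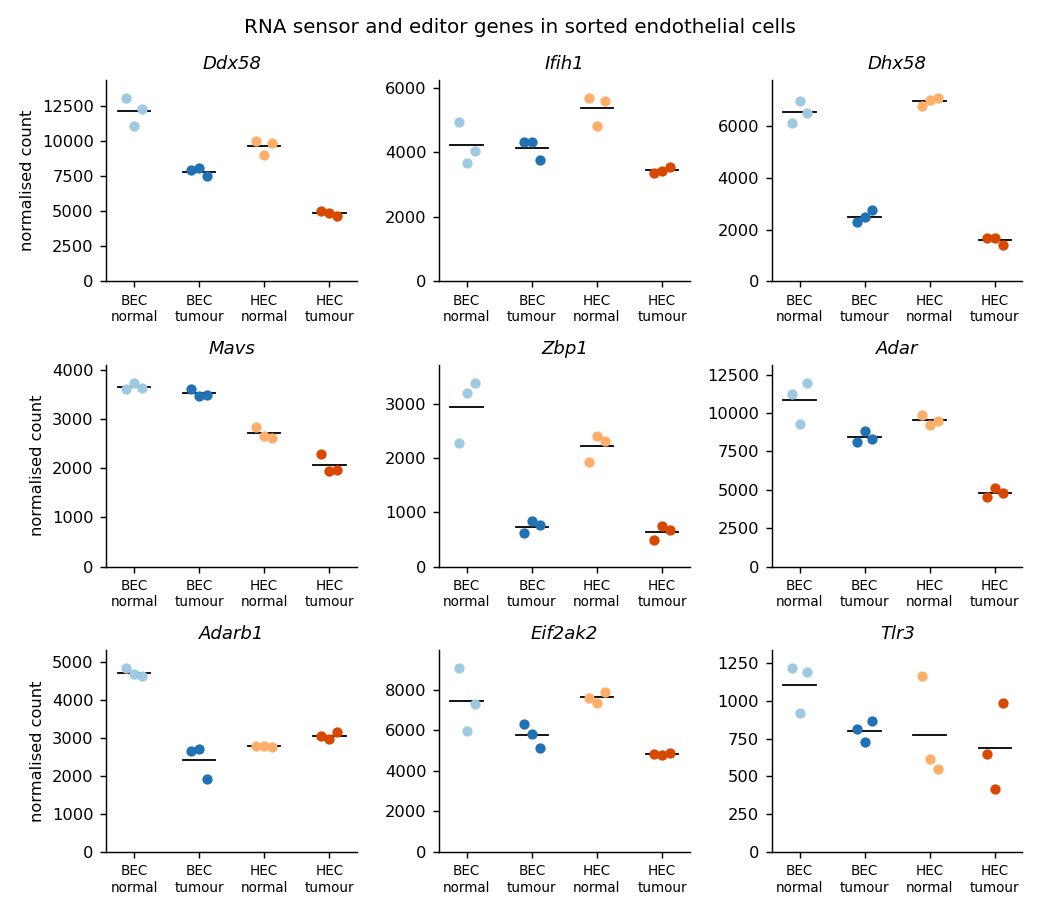
Normalised count of each gene in every endothelial library on axes that start at 0; points are libraries and bars are means of 3. HEC tumour has the lowest mean of the 4 groups for each gene but Adarb1, whose lowest mean is in BEC tumour and whose highest is in BEC normal.

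Dhx58 had 6790, 6999 and 7078 normalised counts in HEC normal and 1694, 1692 and 1407 in HEC tumour. The HEC normal libraries were tight and the fall was 2.12 ± 0.10 on the log2 scale, a fold of 4.35 (adjusted p = 8.24e-100). Zbp1 had 1926, 2409 and 2307 in HEC normal and 495, 755 and 680 in HEC tumour. It fell by 1.78 ± 0.20, a fold of 3.44 (adjusted p = 7.19e-17).

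Ddx58 had 9966, 9004 and 9849 normalised counts in HEC normal and 5023, 4848 and 4641 in HEC tumour. Adar had 9893, 9255 and 9496 and then 4515, 5138 and 4820. Neither gene's groups overlapped, and the folds of 1.99 for Ddx58 (log2 −0.99 ± 0.08, adjusted p = 4.12e-35) and 1.98 for Adar (log2 −0.98 ± 0.10, adjusted p = 9.73e-23) lay at the threshold. Both were called with edgeR, where they fell by 1.01 and 1.01, and with TMM size factors. Both were also called without HEC normal replicate 2 (−1.04 and −1.01), Ddx58 without HEC tumour replicate 1 (−1.02), and Adar without HEC tumour replicate 2 (−1.03).

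Ifih1 had 5678, 4811 and 5593 normalised counts in HEC normal and 3354, 3434 and 3550 in HEC tumour. Eif2ak2 had 7614, 7356 and 7897 and then 4817, 4793 and 4879. Their falls were near equal and under a fold of 2, at 0.64 ± 0.12 (adjusted p = 7.13e-07) and 0.66 ± 0.14 (adjusted p = 9.83e-06) on the log2 scale. Mavs had 2842, 2661 and 2617 and then 2281, 1950 and 1956, a fall of 0.39 ± 0.08 (adjusted p = 1.72e-06). The adaptor thus moved least among the genes that passed the adjusted p. Adarb1 had 2791, 2786 and 2749 in HEC normal and 3040, 2967 and 3149 in HEC tumour. All its HEC tumour libraries were higher, but the log2 fold change was 0.14 ± 0.12 (adjusted p = 0.40). Tlr3 ranged from 548 to 1165 in HEC normal and from 413 to 990 in HEC tumour, the widest spread of any member relative to its mean (coefficients of variation of 43.6% and 42.3%), and its log2 fold change was −0.18 ± 0.33 (adjusted p = 0.73).

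The third comparison set BECs of tumours against BECs of the fat pad. Dhx58 and Zbp1 were again the genes called lower, 2 of 9, where 10.8% of all genes were. At an adjusted p under 0.05 alone, 6 were lower, beside 27.2% of all genes: Ddx58, Dhx58, Zbp1, Adar, Adarb1 and Eif2ak2. The tumour libraries lay wholly below the normal ones for 7, beside 30.4% of all genes. The median log2 fold change of the 9 was −0.46, beside 0.01 over all genes. This comparison and the one in HECs use different libraries, though they share the fit.

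Zbp1 had 2267, 3196 and 3376 normalised counts in BEC normal and 609, 840 and 758 in BEC tumour. The groups were well apart and Zbp1 fell by 2.00 ± 0.20 on the log2 scale (adjusted p = 6.97e-22). Dhx58 had 6110, 6952 and 6506 and then 2282, 2474 and 2739, a fall of 1.38 ± 0.10 and a fold of 2.61 (adjusted p = 2.58e-44). Ddx58 had 13038, 11021 and 12255 and then 7896, 8073 and 7471, a fall of 0.63 ± 0.08 (adjusted p = 2.09e-15). RIG-I thus had its highest RNA level in fat pad BECs, above every library of the other groups.

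Adarb1 had 4828, 4683 and 4627 normalised counts in BEC normal and 2645, 2711 and 1925 in BEC tumour. The normal libraries were close together, tumour replicate 3 was the lowest, and Adarb1 fell by 0.96 ± 0.12 on the log2 scale (adjusted p = 2.72e-15), a fold of 1.94. It passed a fold of 2 without BEC tumour replicate 1 (−1.02) or replicate 2 (−1.04). Adar had 11246, 9300 and 11947 in BEC normal and 8118, 8813 and 8337 in BEC tumour, a fall of 0.36 ± 0.10 (adjusted p = 4.51e-04).

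Eif2ak2 had 9061, 5977 and 7280 normalised counts in BEC normal and 6333, 5829 and 5147 in BEC tumour. These groups overlapped, and the fall was 0.37 ± 0.14 on the log2 scale (adjusted p = 0.014). It did not pass without BEC normal replicate 1 (adjusted p = 0.10) or BEC tumour replicate 3 (adjusted p = 0.089). Ifih1 had 4922, 3674 and 4049 and then 4320, 4325 and 3758. Its groups overlapped throughout, with a log2 fold change of −0.03 ± 0.12 (adjusted p = 0.87) and a 95% interval of −0.26 to 0.20. Mavs had 3617, 3726 and 3631 and then 3598, 3466 and 3486 (log2 −0.06 ± 0.07, adjusted p = 0.54). Tlr3 had 1216, 918 and 1192 and then 814, 727 and 869 (log2 −0.46 ± 0.33, adjusted p = 0.23). Both genes' tumour libraries were all below the normal ones, by little for Mavs.

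**Figure D3:**
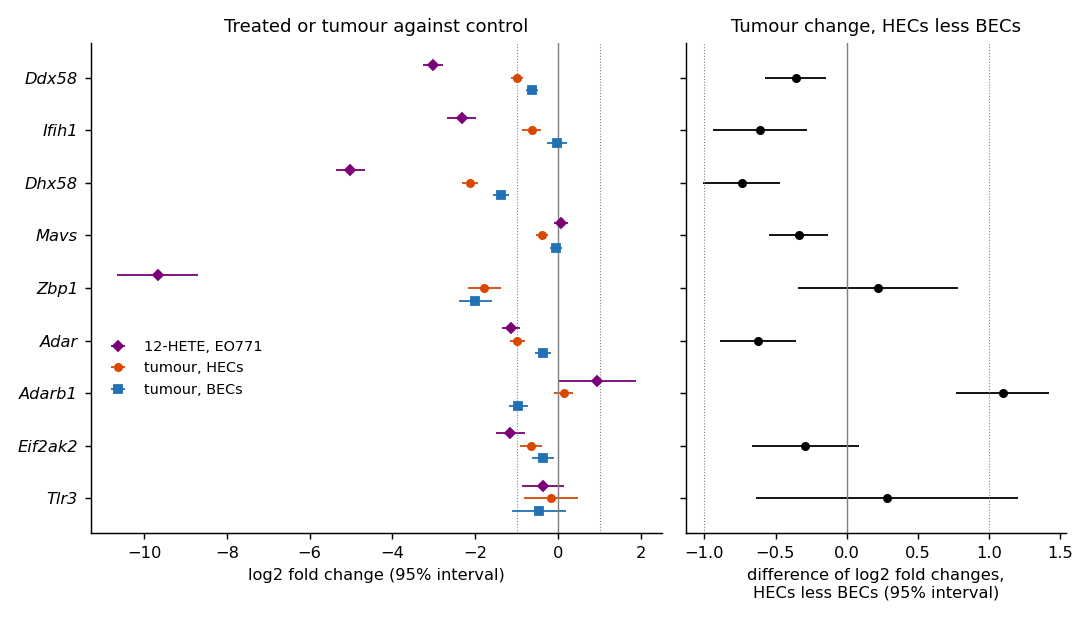
Left, log2 fold change of each gene with 12-HETE in EO771 cells and with tumour in HECs and BECs; right, the change in HECs less that in BECs. Points are DESeq2 estimates, lines their 95% intervals and dotted lines a fold of 2; Zbp1 at −9.67 with 12-HETE lies farthest from 0, and on the right Adarb1 at 1.09 lies opposite to Dhx58 at −0.74.

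Whether tumour went with a different change in HECs than in BECs was then tested directly, as the log2 fold change in HECs less that in BECs. Only Adarb1 passed both thresholds, at 1.09 ± 0.17 on the log2 scale (adjusted p = 3.54e-10), where 11.2% of all genes were called in that direction. It fell in BECs and did not pass in HECs. Without BEC tumour replicate 3 the difference was 0.95 and under the threshold. By adjusted p alone a further 5 genes differed, beside 46.7% of all genes in either direction. In the direction of these 5, a lower change in HECs, 4397 of all 18511 genes tested differed. The 5 fell more in HECs, Dhx58 by a further 0.74 ± 0.14 (adjusted p = 5.63e-07), Adar by 0.62 ± 0.14 (adjusted p = 2.21e-05), Ifih1 by 0.61 ± 0.17 (adjusted p = 9.07e-04), Ddx58 by 0.36 ± 0.11 (adjusted p = 0.0032) and Mavs by 0.34 ± 0.11 (adjusted p = 0.0041). The difference did not pass for Zbp1 (0.22, 95% interval −0.35 to 0.78, adjusted p = 0.57), Eif2ak2 (−0.29, interval −0.67 to 0.08, adjusted p = 0.21) or Tlr3 (0.28, interval −0.64 to 1.20, adjusted p = 0.66). That of Eif2ak2 did pass when BEC normal replicate 1 was left out (−0.45, adjusted p = 0.0052). Zbp1 is thus the sensor whose fall was large in both cell types without a detected difference between them.

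HECs and BECs were also compared directly in each state, and none of the 9 genes passed both thresholds by DESeq2 or edgeR, where 32.2% of all genes did by DESeq2 without tumours and 21.9% with them. At an unadjusted p under 0.05 there were 5 and 6 of the 9. The share of all genes was not taken for that rule, but 63.3% and 54.3% passed even the adjusted p alone. By adjusted p alone, 4 of 9 passed in HEC normal against BEC normal, beside 63.3% of all genes. Ifih1 was the higher in HECs at 0.35 ± 0.12 on the log2 scale (adjusted p = 0.0063), while Ddx58 at −0.33 ± 0.08 (adjusted p = 3.75e-05), Mavs at −0.43 ± 0.07 (adjusted p = 1.71e-08) and Adarb1 at −0.76 ± 0.12 (adjusted p = 2.96e-10) were lower. Zbp1 (−0.41, adjusted p = 0.063) and Adar (−0.18, adjusted p = 0.086) did not pass. Zbp1 did pass without BEC normal replicate 1 (−0.58, adjusted p = 0.0066) and with the 2 groups alone (adjusted p = 0.049), and Adar without BEC normal replicate 2 (−0.29, adjusted p = 2.30e-04). Dhx58 (0.09, adjusted p = 0.41), Eif2ak2 (0.03, adjusted p = 0.84) and Tlr3 (−0.51, adjusted p = 0.17) did not either, though Tlr3 did when HEC normal replicate 1 was left out (−0.92, adjusted p = 0.0055). Ifih1 no longer passed when BEC normal replicate 2 was (adjusted p = 0.059).

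With tumours, 6 of 9 passed the adjusted p alone in HECs against BECs, beside 54.3% of all genes. Adar (−0.80 ± 0.10, adjusted p = 7.90e-16), Mavs (−0.77 ± 0.07, adjusted p = 1.16e-23), Ddx58 (−0.69 ± 0.08, adjusted p = 6.49e-18) and Dhx58 (−0.65 ± 0.10, adjusted p = 4.98e-10) were lower in HECs. Ifih1 was lower by 0.26 ± 0.12, at the edge of the test (adjusted p = 0.049, and 0.077 to 0.16 with any 1 library but BEC tumour replicate 3 left out), and Adarb1 was higher by 0.33 ± 0.12 (adjusted p = 0.011, and 0.051 when HEC tumour replicate 3 was left out). Ifih1 and Adarb1 therefore had opposite signs in the 2 states. Zbp1 (−0.19, adjusted p = 0.44), Eif2ak2 (−0.26, adjusted p = 0.098) and Tlr3 (−0.23, adjusted p = 0.58) did not pass, but Eif2ak2 did when BEC tumour replicate 3 was left out (−0.34, adjusted p = 0.045).

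Across the 4 endothelial groups, mean levels ran over a fold of 4.58 for Zbp1 and 4.35 for Dhx58, against 1.56 for Ifih1, 1.58 for Eif2ak2 and 1.62 for Tlr3. The order of the groups was BEC normal, HEC normal, BEC tumour and HEC tumour for Ddx58, Zbp1 and Adar. Each neighbouring pair was free of overlap for Ddx58, while the normal groups overlapped for Adar and Zbp1 and the tumour groups overlapped for Zbp1. Mavs ran from BEC normal through BEC tumour and HEC normal to HEC tumour, each step without overlap. Adarb1 had an order of its own, BEC normal, HEC tumour, HEC normal and BEC tumour, also without overlap.

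To compare genes with each other, normalised counts were divided by the kilobases of merged exons. Per kilobase, Dhx58 was the most abundant of the 9 in both normal groups, at means of 1994 in BEC normal and 2126 in HEC normal. In BEC tumour and HEC tumour it stood at rank 5, at 764 and 488, and Eif2ak2 at rank 1, at 1128 and 945. Adar stayed at rank 4 in all 4 groups, from 1334 in BEC normal to 594 in HEC tumour. Tlr3 was the least abundant, at 131 to 213. In EO771 cells with vehicle Zbp1 stood at rank 1, at 693 per kilobase, and Adarb1 at rank 9, at 1.20. With 12-HETE Mavs stood at rank 1, at 596, and Zbp1 at rank 9, at 0.85.

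The other genes of these pathways were counted from 7 lists, of 73 genes in all. In EO771 cells 54 were tested, of which 9 were called lower and 2 higher with 12-HETE, beside 7.79% and 2.38% of all genes. In HECs 2 of 60 tested were called with tumour, both lower, beside 3.21% of all genes. In BECs 7 of 60 were called lower, beside 10.8% of all genes, and 5 higher, beside 12.4%. The counts in HECs and BECs thus lay near or below the share of all genes.

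**Figure D4:**
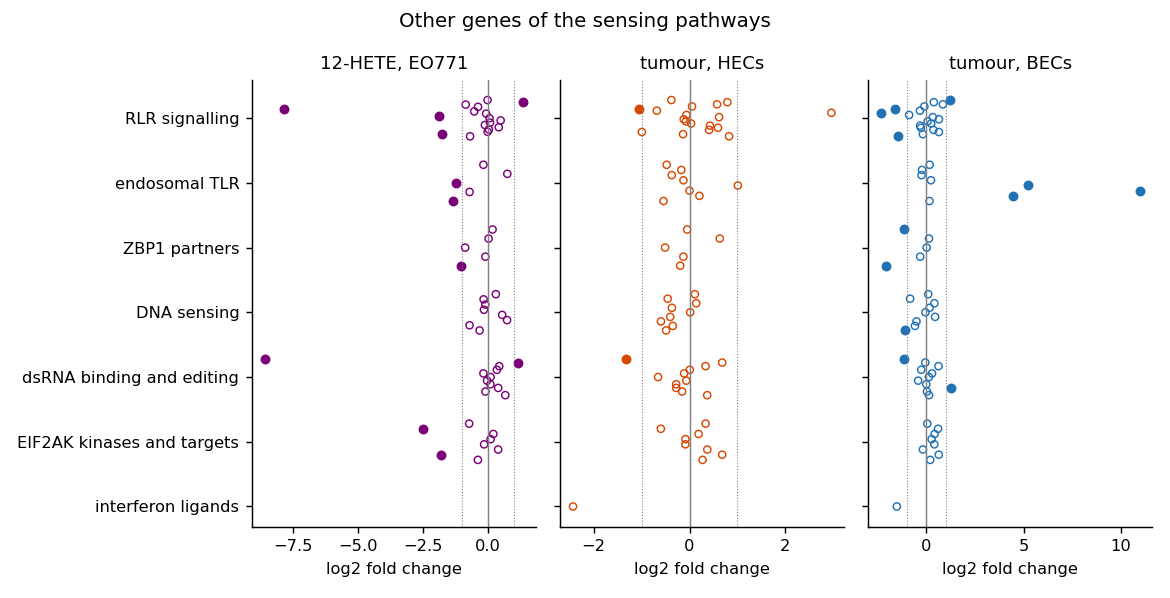
Log2 fold change of each tested gene of 7 pathway lists with 12-HETE in EO771 cells (left) and with tumour in HECs (centre) and BECs (right), each panel on its own scale; filled points passed an adjusted p under 0.05 and a fold over 2, open points did not, and dotted lines mark a fold of 2. Of the tested genes, 11 of 54, 2 of 60 and 12 of 60 are filled.

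Among 18 partners and regulators of the helicase sensors, of which 17 were tested in EO771 cells, 3 were lower and 1 higher with 12-HETE, with a median log2 fold change of −0.06. Irf7, an interferon-induced transcription factor that drives further interferon genes, fell from 16385 ± 2723 to 72.5 ± 11.6 normalised counts (SD, n = 3; log2 −7.82 ± 0.18). Trim25 and Rnf135, ubiquitin ligases that act on RIG-I, had log2 fold changes of −1.75 ± 0.09 and −1.86 ± 0.14. The kinase gene Tbk1 (0.09 ± 0.14) and Irf3 (−0.37 ± 0.10, adjusted p = 8.49e-04), which act below the adaptor, did not pass a fold of 2. Ddx3x, a helicase with roles in the same pathway, rose by 1.37 ± 0.17. In tumour Irf7 fell by 1.05 ± 0.14 in HECs and 1.58 ± 0.14 in BECs. In BECs Rnf125 (−2.31 ± 0.34) and Zcchc3 (−1.44 ± 0.26) also fell and the deubiquitinase gene Cyld rose (1.25 ± 0.08). Trim25 differed in direction, at −0.99 ± 0.07 in HECs and 0.66 ± 0.07 in BECs, and this difference passed both thresholds (−1.65 ± 0.10).

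Of the 5 partners of ZBP1, Ripk3, the kinase it engages, fell with 12-HETE by 1.04 ± 0.33 on the log2 scale, from a low 55.5 to 27.0 normalised counts, and fell in tumour BECs by 2.04 ± 0.11. Casp8, whose protease restrains necroptosis, fell in tumour BECs by 1.13 ± 0.06. Mlkl, the executioner of necroptosis, fell by less than a fold of 2 with 12-HETE (log2 −0.87 ± 0.09) and in tumour HECs (−0.51 ± 0.06), and Ripk1 did not pass a fold of 2 in any of the 3. Of 8 genes of endosomal receptor signalling, Unc93b1, which carries the receptors to endosomes, and Myd88 fell with 12-HETE by 1.32 ± 0.13 and 1.23 ± 0.20, of 5 tested. Ticam1, the adaptor of TLR3, was at −0.70 ± 0.14. In tumour BECs Tlr7, Tlr8 and Tlr9 were called higher, at mean normalised counts of 370, 371 and 26.6 against 9.90, 0 and 1.18. Markers of myeloid cells, in which these receptors are usual, moved with them: the 6 markers summed to 1468 to 1969 CPM (values scaled to library size) in BEC tumour and 107 to 129 in BEC normal. Cd68 and Lyz2 made up most of the BEC tumour sums, and in BEC normal Adgre1 and Fcer1g were at 0 in at least 1 library. Their part in the rise was not tested.

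Of 14 genes that bind or edit double-stranded RNA, 11 were tested. Ddx60, a helicase gene that interferon induces, averaged 882 normalised counts with vehicle and 2.35 with 12-HETE, and it fell by 1.33 ± 0.18 in HECs and 1.13 ± 0.19 in BECs on the log2 scale. Dhx9, a helicase that unwinds structured RNA, rose with 12-HETE by 1.17 ± 0.21, and Strbp rose in tumour BECs by 1.27 ± 0.09. The third editing family member, Adarb2, had at most 6 in any endothelial library and at most 2 in any EO771 library. Among PKR's sister kinases and their targets, the stress genes Ppp1r15a and Ddit3 fell with 12-HETE by 1.80 ± 0.19 and 2.50 ± 0.18. With tumour the 8 genes of this list were under a fold of 2, and by adjusted p 4 rose and 1 fell in HECs, beside 16.9% and 18.5% of all genes, and 6 rose and 1 fell in BECs, beside 26.5% and 27.2%. In the DNA-sensing list, Trex1, an exonuclease that removes cytosolic DNA, fell in tumour BECs by 1.09 ± 0.40. With 12-HETE the 8 genes tested were under a fold of 2, and by adjusted p 3 rose and 2 fell, beside 22.7% and 24.2% of all genes, Sting (listed as Tmem173) by 0.31 ± 0.08. The interferon genes themselves were low: Ifnb1 was the only 1 of 10 tested in endothelial cells, with mean normalised counts of 32.1 in BECs of the fat pad and 11.4 in those of tumours, and of 14.7 in HECs without and 2.63 with tumours, and the highest value of an untested one in an endothelial library was 44, for Ifna4. None was tested in EO771 cells, where Ifnl3 had at most 20 and Ifnb1 at most 15 reads in a library.

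The labelled cell types were checked against their markers. All 8 endothelial markers were found in each endothelial group, though Cldn5 was at 0.21 to 2.01 CPM outside BEC normal. The HEC marker Glycam1 was at 573 to 1105 CPM in HECs and at 0 in BECs, and Fut7 at 221 to 1021 and at most 0.41. Of the other HEC markers, Madcam1 (at most 0.26 CPM in HECs and 0.39 in BECs) and Enpp2 (at most 3.998 and 3.82) did not separate the cell types. Chst4 was uneven in HEC normal, at 0.06 to 297 CPM, and at 916 to 939 in HEC tumour. In EO771 cells epithelial markers summed to 2867 to 3781 CPM with vehicle and 1929 to 1985 with 12-HETE, and leukocyte markers to at most 1.78. In HECs, myeloid markers summed to 484 to 509 CPM in HEC normal and 356 to 374 in HEC tumour, nearly all of it Cd68 (477 to 503 and 350 to 370), with none of the other 5 above 6.62. Leukocyte markers summed to 1.73 to 3.21 and 1.49 to 1.99, and epithelial markers, which EO771 cells hold, to 1.31 to 3.10 and 0.79 to 1.25. In BECs leukocyte markers were 2.28 to 4.07 in BEC normal and 15.2 to 20.6 in BEC tumour, epithelial markers 1.32 to 2.86 and 7.91 to 71.6, and fibroblast and pericyte markers 804 to 812 and 68.5 to 97.4. The 4 markers of plasmacytoid dendritic cells summed to 1401 to 1435 CPM in HEC normal and 841 to 856 in HEC tumour. Most of each sum was the interferon-induced Bst2, at 1351 to 1406 and 794 to 802. Tcf4 did not fall, at 29.2 to 49.7 and 47.3 to 53.6. Ccr9 was at 0 in HEC normal and at most 0.07 in HEC tumour, and Siglech, specific to these cells, was at 0 in both HEC groups. The part of these cells in the sensors' differences was not tested.

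For the 3 genes that the study deleted, the genes most alike across the 12 endothelial libraries were taken by Pearson correlation of log2 normalised counts among 13290 genes with a mean of at least 100. For Zbp1 these were Chst12 (r = 0.984), Lgals9 (0.983) and the interferon-induced ubiquitin-like gene Isg15 (0.980). For Adar they were the interferon-induced helicase gene Helz2 (0.980), Chek2 (0.973) and Hp1bp3 (0.973). For Ifih1 they were St3gal1 (0.934), Irf2 (0.926) and Dcaf5 (0.925). Among the 9 genes, Ddx58 with Adar (0.969) and Dhx58 with Zbp1 (0.945) were the most alike, and Ifih1 with Adarb1 (−0.05) the least. The libraries fall into 4 groups, so these values describe shared group differences and carry no test.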

How the data were processed

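The authors aligned the reads with STAR to the mouse genome, GRCm38, and counted them with featureCounts. The endothelial values that the authors deposited were taken as estimated counts, since they are whole numbers in steps of about 3.7, and were rounded before use. The deposited EO771 values are raw counts per gene symbol. The methods and the labels name different library kits, and the strand setting of the counting is not given in the sources used here. Of 55401 endothelial identifiers 260 had no symbol. Among the distinct symbols on the 22612 EO771 lines, 295 had no match and 33 stood on more than 1 line.

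Genes with a mean of at least 10 were tested with DESeq2 1.42.0 (R 4.3.3), two-sided Wald test, Benjamini-Hochberg adjustment over all genes tested, in 1 fit of 12 endothelial and 1 of 6 EO771 libraries whose design held group alone, and called at an adjusted p under 0.05 and a fold over 2. The test was checked on simulated whole counts with the same dispersion for every gene. The simulation held no steps of about 3.7, so it does not cover the endothelial values as deposited. Levels are means ± SD (n = 3) and changes are ± SE. Intervals and floors cover counting or replicate error only. CPM values were computed from the deposited values.

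The 9 genes and all lists were chosen with earlier results of these data known. The text names all 9 genes, up to 4 called genes per list for 12-HETE and for tumour by adjusted p, and the 3 genes most alike to each of Ifih1, Zbp1 and Adar. Genes named outside this rule, Tbk1, Irf3, Mlkl, Ripk1, Ticam1, Tmem173, Adarb2, Ifnb1, Ifna4 and Ifnl3, were added after their values were seen. Deviations of EO771 libraries with the same replicate number correlated at 0.111, 0.173 and 0.328, all over 0.1, so on the evidence of the data alone these numbers may pair the libraries. The values given are from the fit without pairs, and the block is an alternative. Endothelial deviations correlated at −0.015 to 0.126, and those numbers were not read as pairs. Alternatives were edgeR 4.0.16, TMM size factors, no filter, the adjusted p alone, each library left out, a replicate block, values divided by their step, and fits of the 2 groups alone.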

Additional observations from a re-analysis of the deposited data

Results flagged for a closer look

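For 6 of the 9 genes, tumour went with unequal changes in HECs and in BECs by a test of the difference itself (interaction in DESeq2, adjusted p under 0.05), beside 46.7% of all genes tested. On the log2 scale, the change in HECs less that in BECs was −0.36 for Ddx58, −0.61 for Ifih1, −0.74 for Dhx58, −0.34 for Mavs, −0.62 for Adar and 1.09 for Adarb1. Myeloid, leukocyte and epithelial markers were higher in BEC tumour than in BEC normal and not in HEC tumour than in HEC normal. Fibroblast and pericyte markers were lower with tumour in BECs (68.5 to 97.4 CPM, against 804 to 812 in BEC normal) and in HECs (10.4 to 11.6, against 24.9 to 26.0). The part of these cells in the differences was not tested.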

How the results depend on the processing

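Of 675 single-gene fold changes recomputed under an alternative, 653 kept their sign and their call (adjusted p under 0.05 with a fold over 2), and 25 changed side of the adjusted p alone. Among the latter, besides those given above for left-out libraries, Ifih1 in HEC tumour against BEC tumour lost the adjusted p with edgeR (0.0503), no filter (0.056) and values divided by their step (0.065). Fits of the 2 groups alone lost it for Adarb1 in the same comparison (0.062) and Eif2ak2 in BECs (0.10), and gained it for Eif2ak2 in HEC tumour against BEC tumour (0.0096), Adarb1 in HECs (0.035) and Tlr3 in BECs (0.023). Zbp1 in HEC normal against BEC normal passed with the replicate number as a block (adjusted p = 7.09e-05), and Adarb1 with 12-HETE passed with edgeR (adjusted p = 0.0498). By adjusted p alone, 4 genes passed in HEC normal against BEC normal and 6 in HEC tumour against BEC tumour (0 each with the fold), 7 in HEC tumour against HEC normal, 6 in BEC tumour against BEC normal and 6 in the interaction. In HEC tumour against HEC normal, edgeR and TMM size factors each called 4 in place of 2, by adding Ddx58 and Adar at a log2 fold change near −1. Over all 18511 genes they called 529 and 672 lower, beside 595 in the main fit. Leaving out each library in turn gave 2 to 4 in HECs, where the 4 came without HEC normal replicate 2, 2 to 3 in BECs, 0 to 1 in the interaction, where the 0 came without BEC tumour replicate 3, and 5 to 6 with 12-HETE. Over all genes, 560 to 637 were then called lower in HECs, with 579 without HEC normal replicate 2. In BECs 1811 to 1980 were called lower, and with 12-HETE 792 to 945. In the interaction 1916 to 2103 were called higher, with 2047 without BEC tumour replicate 3. With the replicate number as a block the calls were 6 of 9 with 12-HETE, 2 in HECs, 2 in BECs, 1 in the interaction and 0 in both comparisons of HECs with BECs, so the block changed no count of members. Over all genes the block called 808 lower with 12-HETE, 567 in HECs and 1941 in BECs, and 2012 higher in the interaction. Between HECs and BECs it called 3181 higher and 2819 lower without tumours, and 2077 and 1986 with them. Ifih1 in BECs, which was not called, changed sign with edgeR (0.0067), TMM size factors (0.0064) and the 2 groups alone (0.013), and ran from −0.13 to 0.095 over the left-out libraries (above 0 without BEC normal replicate 1, and without BEC tumour replicate 3 at 0.039). Over left-out libraries, other uncalled changes that crossed 0 were Eif2ak2 in HEC normal against BEC normal (−0.11 without BEC normal replicate 2, to 0.20) and Tlr3 in HECs (−0.55 to 0.23), in HEC tumour against BEC tumour (−0.59 to 0.031) and in the interaction (−0.086 to 0.69). The cause of these changes was not tested. Depth limits Zbp1 with 12-HETE and Adarb1 in EO771 cells, which rest on few reads.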
